A study of Mus musculus with 10 samples.

Results

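The genes of cholesterol synthesis and the targets of the sterol regulatory element-binding proteins (SREBPs) were followed in tumor-infiltrating mouse CD8+ T cells. The 33 genes were taken from textbook knowledge of the pathway by name, and were 33 of the 34932 genes in the annotated tables. They comprise 19 enzymes of sterol and isoprenoid synthesis, 6 regulators of the pathway and sterol carriers, 6 lipogenic targets and 2 sterol efflux pumps. Of these, 32 had enough counts to be tested. Scd1, a stearoyl-CoA desaturase, did not.

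The study asked what forced expression of BATF, an AP-1 family transcription factor, does to tumor-specific CD8+ T cells. Both groups were made from splenocytes of Pmel Thy1.2/Thy1.2 mice, whose T cell receptor recognizes the melanoma antigen gp100. They were stimulated for 24 h with the gp100 peptide plus IL-2 (10 IU/mL), infected with the MSCV-IRES-Thy1.1 (MIT) retrovirus, and later kept in IL-2 at 50 IU/mL with IL-7 and IL-15, both at 10 ng/mL. In the MIT-BATF group the vector carried the mouse BATF open reading frame, and in the MIT-Empty group it carried no insert. Each B16-F10 tumor-bearing Ly5.1 mouse received 5000000 retroorbital Thy1.1+ cells, and 2000 live Thy1.1+ cells were sorted from its tumor on day 7. Thy1.1 comes with the vector, so the sorted cells of both groups were transduced. There are 5 libraries per group, each from the cells of 1 mouse, and the ages of the mice were not used here.

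A sterol-poor endoplasmic reticulum lets the carrier protein SCAP bring SREBPs to the Golgi, where proteases release their transcription factor domain. SREBP-2, encoded by Srebf2, chiefly drives the enzymes that turn acetyl-CoA into cholesterol, while SREBP-1, encoded by Srebf1, chiefly drives fatty acid synthesis. INSIG proteins hold SCAP back when sterols are plentiful. In activated T cells the pathway is known to be switched on to supply membrane for growth and division. Oxysterols activate the LXR receptors, whose targets include the efflux pumps Abca1 and Abcg1.

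The letters before the transcription start are shown for 3 of the 4 members that passed the test, because SREBP and its partner NF-Y are known to bind there. They were read from RefSeq promoters on GRCm38.p6, 250 bases before the start. Capitals mark the sterol regulatory element (SRE) TCACNCCAC and the CCAAT box bound by NF-Y, each on either strand. The 3 genes shown code for HMG-CoA synthase, isopentenyl diphosphate isomerase and an INSIG protein. Insig2, which also passed and is not printed, has more than 1 RefSeq promoter. Its stretch at chr1:121332590-121332839 holds 3 CCAAT boxes. Those at chr1:121328025-121328274 and chr1:121327679-121327928 hold 0, and the SRE is in none of them.
Hmgcs1, chr13:119690101-119690350, plus strand: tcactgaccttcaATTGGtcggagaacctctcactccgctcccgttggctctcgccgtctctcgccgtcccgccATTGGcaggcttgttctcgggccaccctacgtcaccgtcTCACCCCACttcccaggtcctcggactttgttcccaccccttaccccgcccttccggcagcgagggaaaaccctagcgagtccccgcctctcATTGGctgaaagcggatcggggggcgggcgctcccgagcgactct
Idi1, chr13:8885356-8885605, plus strand: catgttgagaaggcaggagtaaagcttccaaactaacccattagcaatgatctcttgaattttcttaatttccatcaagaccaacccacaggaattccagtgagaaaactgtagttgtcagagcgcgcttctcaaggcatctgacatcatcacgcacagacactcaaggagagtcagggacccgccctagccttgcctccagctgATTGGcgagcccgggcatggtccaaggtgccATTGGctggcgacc
Insig1, chr5:28071162-28071411, plus strand: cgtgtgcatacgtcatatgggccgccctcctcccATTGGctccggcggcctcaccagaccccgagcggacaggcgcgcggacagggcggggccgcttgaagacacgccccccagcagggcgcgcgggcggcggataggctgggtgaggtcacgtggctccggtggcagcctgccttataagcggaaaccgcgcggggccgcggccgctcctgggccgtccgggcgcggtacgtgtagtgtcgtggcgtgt

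Over the window from 250 bases before to 50 after the start, RefSeq promoters were matched for 26 of the 33 members. Several members have more than 1, and none was matched for Sqle, Fdps, Fdft1, Stard4, Scd1, Scd2 and Abcg1. A gene was counted where any of its promoters held the motif. A CCAAT box stood in the window of 21 of the 26 matched members, against 41.1% of all 27025 genes with a promoter. Counted per promoter, it stood in 22 of 34 of these members, against 37.4% of all 32851 promoters. The GC box GGGCGG, bound by SP1, stood in 21 of the 26, against 38.2% of all genes. The strict SRE was found in 1 member, Hmgcs1, where it begins at -137 from the start, and in 1.44% of all genes. The E-box CACGTG, which SREBP-1 can also bind, stood in 6 of the 26, against 8.09% of all genes. The LXR element known as DR4 stood in 0 of the 26 and in 0.0148% of all genes. All motifs were searched on both strands, no motif holds another, and a match in letters is a description of the window only.

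The libraries held between 10702740 and 34102086 estimated counts under the label MIT-BATF, and between 6534472 and 21355657 under the label MIT-Empty. Batf itself spanned 12.4 to 26.5 CPM (counts scaled to a common library size) in the libraries labelled MIT-BATF and 13.5 to 50.8 CPM in those labelled MIT-Empty. edgeR gave Batf a log2 fold change of -0.41 (adjusted p = 0.522). Whether the reading frame in the vector was counted as Batf is not known, so Batf does not check the labels, and each direction below rests on them. The counts of 4 libraries lay within those of another of the same group: replicate 4 within replicate 2 and replicate 5 within replicate 3, in both groups. Values below are from the deposited counts unless said otherwise. The tests were repeated on counts in which the contained library was taken off the library that contains it, called shared counts counted once, and those values stand beside the calls and main comparisons. Where the deposited counts overlap, their p-values are too small and their intervals too narrow. The 8 T cell markers summed to 2785 to 4714 CPM and 3163 to 4965 CPM. Melanoma markers summed to 14.7 to 26.4 CPM and 42.8 to 1677 CPM (15.8 to 28.4 and 45.1 to 1812 CPM with shared counts counted once), led by Tyrp1, Dct and Mlana. Mitochondrially encoded genes took 33.2% of the counts in MIT-BATF replicate 1 and 11.5% to 23.1% in the other libraries.

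Of the 19 sterol synthesis enzymes, 18 had lower values in the libraries labelled MIT-BATF, 2 of them past the test, and both INSIG genes passed beside them (the direction of Dhcr7 turned with transcript length taken into account, and that of Ggps1 without 1 library). Among the 32 members tested with edgeR (quasi-likelihood test, p-values adjusted over 11781 genes by the Benjamini-Hochberg method), 4 passed an adjusted p of 0.05 with lower values, where 2.43% of all genes did. They were the enzymes Hmgcs1 and Idi1 and the regulators Insig1 and Insig2. No member passed with higher values, where 2.16% of all genes did. Without adjustment, 15 members were lower and 2 higher at a p under 0.05, against 8.97% and 9.13% of all genes. DESeq2 called 10 members lower and 1, Elovl6, higher, where it called 4.85% and 3.37% of its genes. limma voom called the same numbers of members, against 5.93% and 5.41% of all genes, and Elovl6 was again the higher one. The log2 fold change lay below 0 in 24 members, against 49.3% of all genes, and the members' median was -0.51 against 0.01 over all genes. The 5 libraries labelled MIT-BATF all lay below the 5 labelled MIT-Empty in 9 members, against 3.17% of all genes, and above them in 0, against 3.28%. With shared counts counted once, 2 members passed as lower (0.683% of 11131 genes did), Hmgcs1 and Idi1, and 0 as higher (0.575%). There 11 members were lower and 2 higher without adjustment, against 5.18% and 5.45% of all genes, and 25 lay below 0, against 50.1%. The groups did not overlap in 5 members, all lower, against 1.57% of all genes, with 0 higher against 1.62%. DESeq2 on these counts called 4 lower (1.48% of its genes) and 1 higher (1.15%). The members' median was then -0.47. These are mRNA levels of sorted bulk populations, in which fewer cells of a type and less RNA per cell cannot be told apart.

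**Figure D1:**
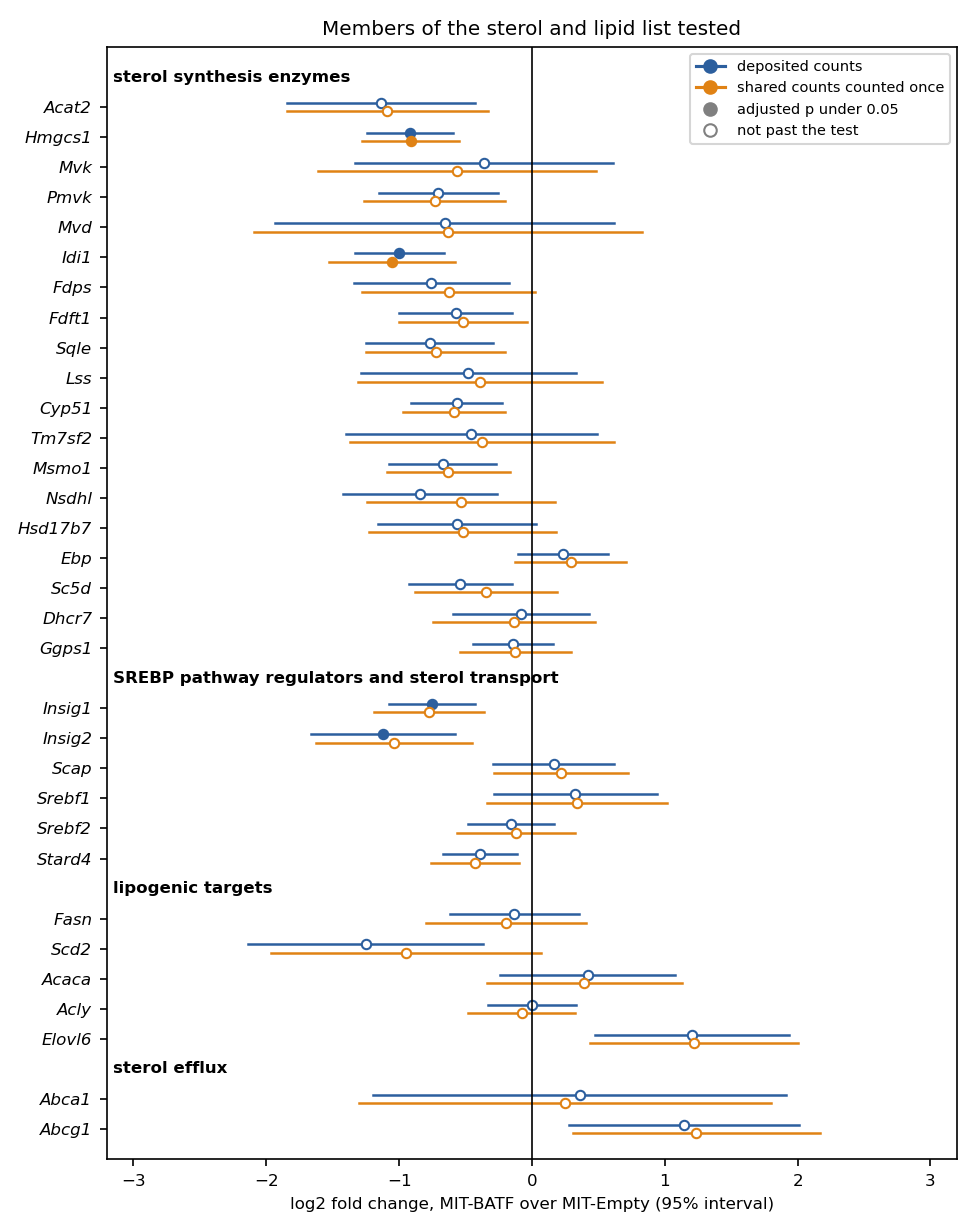
Log2 fold change of each tested member (x axis, MIT-BATF over MIT-Empty) with its 95% confidence interval, by class, from the deposited counts (blue) and with shared counts counted once (orange), where filled points passed an adjusted p of 0.05. All sterol synthesis enzymes except Ebp lie left of 0, from -1.13 for Acat2 to -0.08 for Dhcr7, which turned to 0.31 with transcript length taken into account, while the lipogenic and efflux genes spread from -1.25 for Scd2 to 1.21 for Elovl6.

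The first part of the pathway runs from acetoacetyl-CoA to squalene, and all 8 of its enzymes had log2 fold changes below 0. Their median was -0.73, and -0.68 with shared counts counted once. Of the 8, 2 passed the test as lower in both fits, where 2.43% of all genes did, and 0.683% with shared counts counted once. None passed as higher in either, where 2.16% and 0.575% of all genes did. DESeq2 and limma voom each called 4 of them lower, against 4.85% and 5.93% of the genes each tested.

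Hmgcs1, which joins acetyl-CoA to acetoacetyl-CoA to make HMG-CoA, stood at 27.7, 21.9, 25.9, 18.5 and 28.9 CPM in MIT-BATF replicates 1 to 5. In MIT-Empty replicates 1 to 5 it stood at 55.7, 43.2, 45.1, 41.5 and 46.9 CPM. The highest library labelled MIT-BATF lay below the lowest labelled MIT-Empty. The log2 fold change was -0.92 (SE 0.15, 95% confidence interval -1.24 to -0.59, edgeR adjusted p = 0.0034), a level 1.89-fold lower. Intervals below are of the same kind. With shared counts counted once it was -0.91 (SE 0.17, edgeR adjusted p = 0.0161), and it passed without any 1 library in either kind of count. Without the 4 contained libraries, which leaves 3 per group, the adjusted p was 0.058, and without the 4 containing ones it was 0.231, the highest of 33 alternatives.

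Idi1 was the most abundant member per length in the libraries labelled MIT-Empty, at 18.0 ± 2.58 TPM (SD, n = 5) against 9.60 ± 2.16 TPM (SD, n = 5) under the label MIT-BATF. It makes dimethylallyl diphosphate, the starter unit of all isoprenoids. Replicates 1 to 5 held 44.9, 39.1, 46.7, 49.1 and 64.3 CPM under MIT-BATF and 115, 82.8, 87.5, 95 and 107 CPM under MIT-Empty. By edgeR it changed by -1.0 on the log2 scale (SE 0.16, interval -1.33 to -0.66, adjusted p = 0.0024), with no overlap between the groups. Counting shared counts once gave -1.05 (SE 0.22, adjusted p = 0.0292 by the same test). In those counts the call rested on single libraries: it held without MIT-BATF replicate 5 or MIT-Empty replicate 3, and without any other library the adjusted p lay between 0.0559 and 0.0925. Over all 33 alternatives it lay between 1.05e-06 and 0.137.

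Acat2, the cytosolic acetoacetyl-CoA thiolase at the head of the pathway, had values of 2.11, 5.07, 4.73, 4.89 and 3.50 CPM under MIT-BATF and 16.9, 6.39, 8.27, 5.17 and 8.30 CPM under MIT-Empty. The groups did not overlap, by a margin of 0.1 CPM, and MIT-Empty replicate 1 stood far above the rest. Its log2 fold change of -1.13 missed the threshold (adjusted p = 0.0673 by edgeR) and stood at -0.79 without that library. Pmvk, phosphomevalonate kinase, lay at 5.27 to 10.5 CPM against 11.6 to 17.3 CPM, also with no overlap, at a log2 fold change of -0.70 (adjusted p = 0.073 by edgeR). Both overlapped between groups with shared counts counted once. DESeq2 gave adjusted p-values of 0.0158 for Acat2 and 0.0249 for Pmvk. Over the 33 alternatives these ranged from 0.0158 to 0.504 and from 0.0234 to 0.531.

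Fdps, which makes farnesyl diphosphate, stood at 7.72, 14.5, 28.0, 15.3 and 23.1 CPM against 26.0, 23.8, 32.8, 28.9 and 39.4 CPM. The groups overlapped, and the log2 fold change of -0.76 did not pass (edgeR adjusted p = 0.144). Fdft1, squalene synthase, lay at 7.72 to 13.4 CPM against 12.6 to 17.8 CPM, at -0.57 (edgeR adjusted p = 0.13). The values were -0.63 for Fdps and -0.52 for Fdft1 with shared counts counted once, neither past the test (edgeR adjusted p = 0.495 and 0.405). Mvk and Mvd, the kinase and decarboxylase on the way to isopentenyl diphosphate, were low, at no more than 7.35 CPM in any library. Their log2 fold changes of -0.36 and -0.66 had intervals of -1.33 to 0.61 and -1.93 to 0.62, so a difference of 2-fold downward could not be told from none at this depth. Counting shared counts once moved them to -0.57 and -0.63, again with intervals that include 0. Fdft1 lies across Ctsb on the other strand, and the protocol does not mark strand.

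The second part runs from squalene to cholesterol, and 9 of its 10 enzymes had log2 fold changes below 0 (Dhcr7 turned with transcript length, as given below), with a median of -0.55. By edgeR 0 of the 10 passed in either direction, where 2.43% of all genes passed as lower and 2.16% as higher. Without adjustment (p under 0.05) 5 were lower, against 8.97% of all genes. DESeq2 called 4 lower and limma voom 3, against 4.85% and 5.93% of the genes each tested. Counted once, the shared counts gave a median of -0.46, edgeR called 0, and 3 were lower without adjustment, against 5.18% of all genes.

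Sqle, squalene epoxidase, a rate-limiting enzyme of sterol synthesis, held 22.8, 14.8, 16.9, 9.20 and 14.7 CPM under MIT-BATF and 26.9, 28.7, 25.6, 34.9 and 18.2 CPM under MIT-Empty. Only MIT-BATF replicate 1 reached into the MIT-Empty values, above replicate 5 of that group. The difference was -0.77 on the log2 scale (SE 0.22, edgeR adjusted p = 0.0658). Without MIT-BATF replicate 1 it was -0.93 (adjusted p = 0.0197) and without MIT-Empty replicate 5 it was -0.86 (adjusted p = 0.0486). The adjusted p was 0.226 with shared counts counted once, and it ranged from 0.00559 to 0.60 over the alternatives.

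Cyp51, lanosterol demethylase, held 46.5, 34.2, 43.5, 32.0 and 39.5 CPM under MIT-BATF and 75.4, 61.1, 52.8, 55.4 and 45.6 CPM under MIT-Empty. The groups overlapped by 1 library on each side, and the log2 fold change was -0.57 (SE 0.16, edgeR adjusted p = 0.0604). It passed without MIT-BATF replicate 1, at -0.63 (adjusted p = 0.035). Cyp51 lies across Akap9 on the other strand. Msmo1, the methylsterol oxidase that follows, held 21.7, 20.6, 31.2, 18.7 and 35.7 CPM against 45.6, 39.4, 33, 46.9 and 40.0 CPM. The log2 fold change of Msmo1 was -0.67 (SE 0.19, edgeR adjusted p = 0.0571), and -0.82 (adjusted p = 0.0204) without MIT-BATF replicate 5, its highest library in that group. The adjusted p was 0.169 for Cyp51 and 0.23 for Msmo1 with shared counts counted once. It ranged from 0.00579 to 0.592 for Cyp51 and from 0.00716 to 0.441 for Msmo1 over the alternatives.

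Nsdhl and Sc5d, a sterol dehydrogenase and a sterol desaturase, did not overlap between groups in the deposited counts. Nsdhl lay at 3.62 to 11.3 CPM against 11.8 to 22.9 CPM, and Sc5d at 10.1 to 15.9 CPM against 16.2 to 26.2 CPM. Neither passed, at -0.84 (edgeR adjusted p = 0.103) and -0.54 (edgeR adjusted p = 0.12), and both overlapped once shared counts were counted once. Lss, Tm7sf2 and Hsd17b7 had log2 fold changes of -0.48, -0.46 and -0.56 with intervals that include 0. Tm7sf2 shares a stretch of the same strand with Vps51, which leaves its count uncertain.

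Of the enzymes at the end of the pathway and on its isoprenoid branch, Ebp, Dhcr7 and Ggps1 had values near those of MIT-Empty. Ebp, the sterol isomerase, held 26.0, 27.9, 37.9, 31.2 and 36.0 CPM under MIT-BATF and 21.1, 26.4, 27.4, 26.3 and 33.9 CPM under MIT-Empty. It differed by 0.23 on the log2 scale (interval -0.11 to 0.58, edgeR adjusted p = 0.49) and lay above 0 in all 33 alternatives. Dhcr7, which removes the last double bond before cholesterol in its branch, lay at 4.10 to 7.28 CPM against 4.65 to 7.76 CPM. The value of -0.08 on the log2 scale (interval -0.60 to 0.43) turned to 0.31 with transcript length taken into account. Ggps1, which turns farnesyl into geranylgeranyl diphosphate and leaves the sterol branch, lay at 22.9 to 31.0 CPM against 26.3 to 35.9 CPM, at -0.14 (interval -0.44 to 0.16). Ggps1 lies across Arid4b on the other strand.

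**Figure D2:**
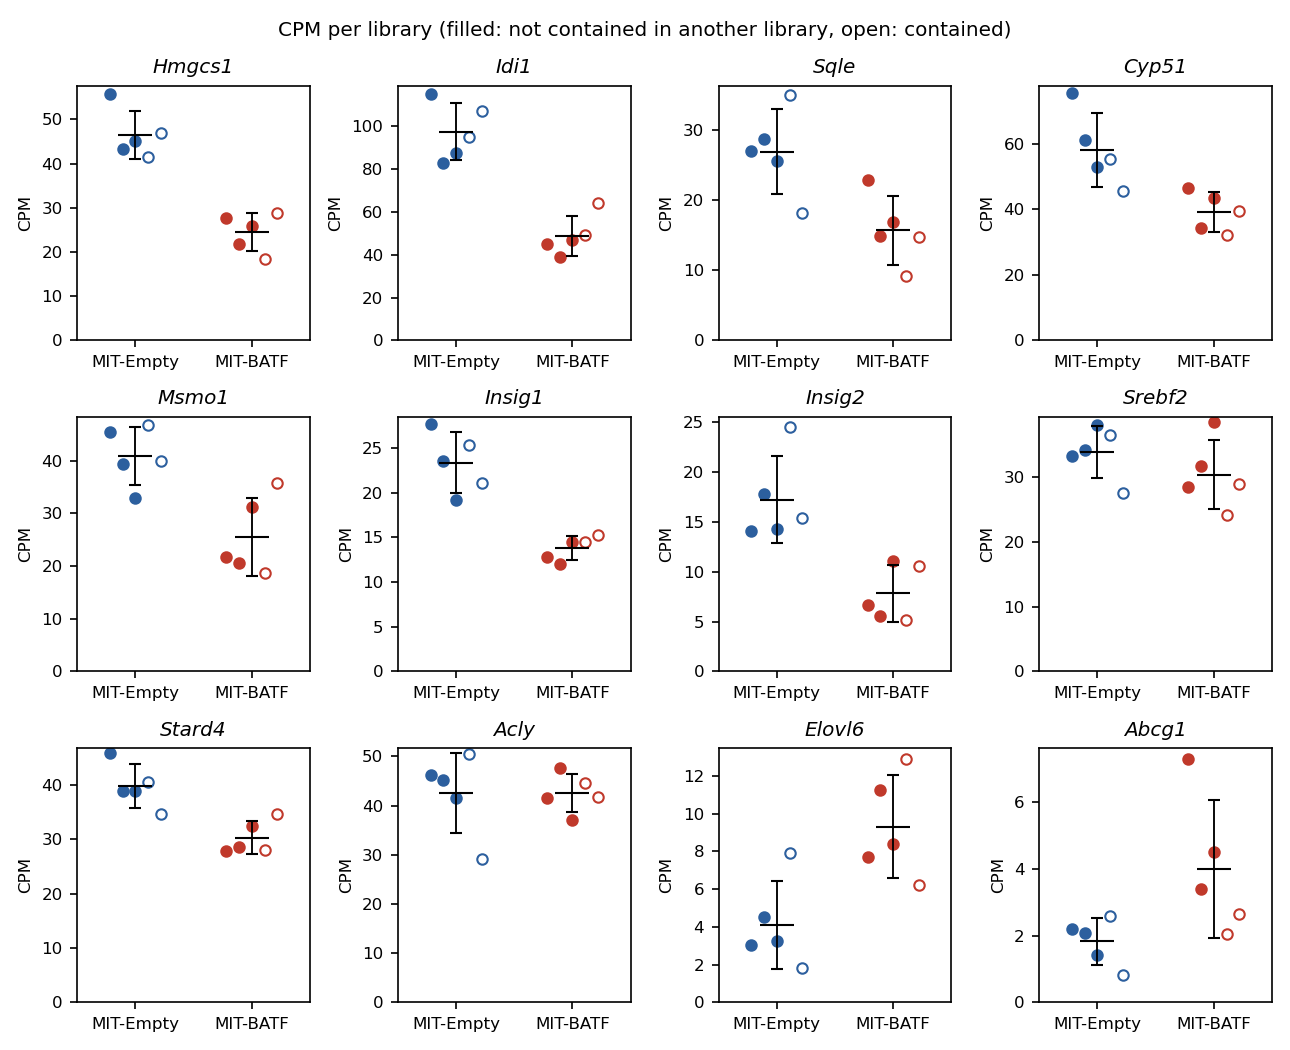
CPM (y axis, from 0) of 12 members in each library by group, where open points are the libraries whose counts lie within another library and bars give the mean and SD of 5 libraries. Hmgcs1, Idi1, Insig1, Insig2 and Stard4 show no overlap between groups, Srebf2 and Acly overlap almost fully, and Elovl6 and Abcg1 have most MIT-BATF libraries above those of MIT-Empty.

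Summed over the 19 sterol synthesis enzymes, replicates 1 to 5 held 291, 267, 329, 256 and 340 CPM under MIT-BATF and 508, 420, 434, 458 and 474 CPM under MIT-Empty. The highest sum of the former lay below the lowest of the latter, and it did so with shared counts counted once, at 276 to 365 CPM against 422 to 547 CPM. Summed as TPM, the authors' length-scaled values, the enzymes stood at 57.4 to 115 against 98.7 to 128, and the groups overlapped.

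Other RNA moved with the groups too. Beside the counts below, edgeR called 2.43% of all genes lower, and 0.683% with shared counts counted once. In the latter, 5.18% of all genes were lower without adjustment by edgeR, and DESeq2 called 1.48% of its genes lower. The 10 cell cycle genes summed to 576, 679, 709, 559 and 732 CPM under MIT-BATF and 846, 877, 899, 914 and 919 CPM under MIT-Empty, with no overlap. All 10 had log2 fold changes below 0, and Top2a, Ccna2, Ccnb1 and Cdk1 passed the test by edgeR. With shared counts counted once edgeR called 0 (7 were lower without adjustment) and DESeq2 called 2, Ccna2 and Top2a, and the sums still did not overlap, at 600 to 829 CPM against 911 to 989 CPM. The 13 macrophage and monocyte markers summed to 25.4 to 86.4 CPM against 42.1 to 246 CPM, led by Lyz2, and counted once to 20.5 to 92.8 CPM against 45.4 to 266 CPM. edgeR called 3 of them lower, and 0 with shared counts counted once, where DESeq2 called 5. Of the 8 melanoma markers, 6 could be tested, all with log2 fold changes below 0. edgeR called 5 of them lower, and 2, Mlana and Tyrp1, with shared counts counted once, where DESeq2 called 0. Sox10 and Mitf were at no more than 0.294 and 0.365 CPM under MIT-BATF. The 6 fibroblast and endothelial markers summed to 6.58 to 13.5 CPM against 14.1 to 96.0 CPM, led by Pecam1 and, in MIT-Empty replicate 4, by Col3a1, and counted once to 7.07 to 14.5 CPM against 14.8 to 104 CPM. The melanoma sums of MIT-Empty replicates 1 to 5 were 115, 555, 52.4, 1677 and 42.8 CPM, and 124, 45.1, 65.8, 1812 and 46.1 CPM with shared counts counted once. Replicate 2 thus held most of its melanoma counts in common with replicate 4, which it contains. The part of cell division and of macrophage, melanoma and stromal RNA in the enzyme levels was not tested.

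**Figure D3:**
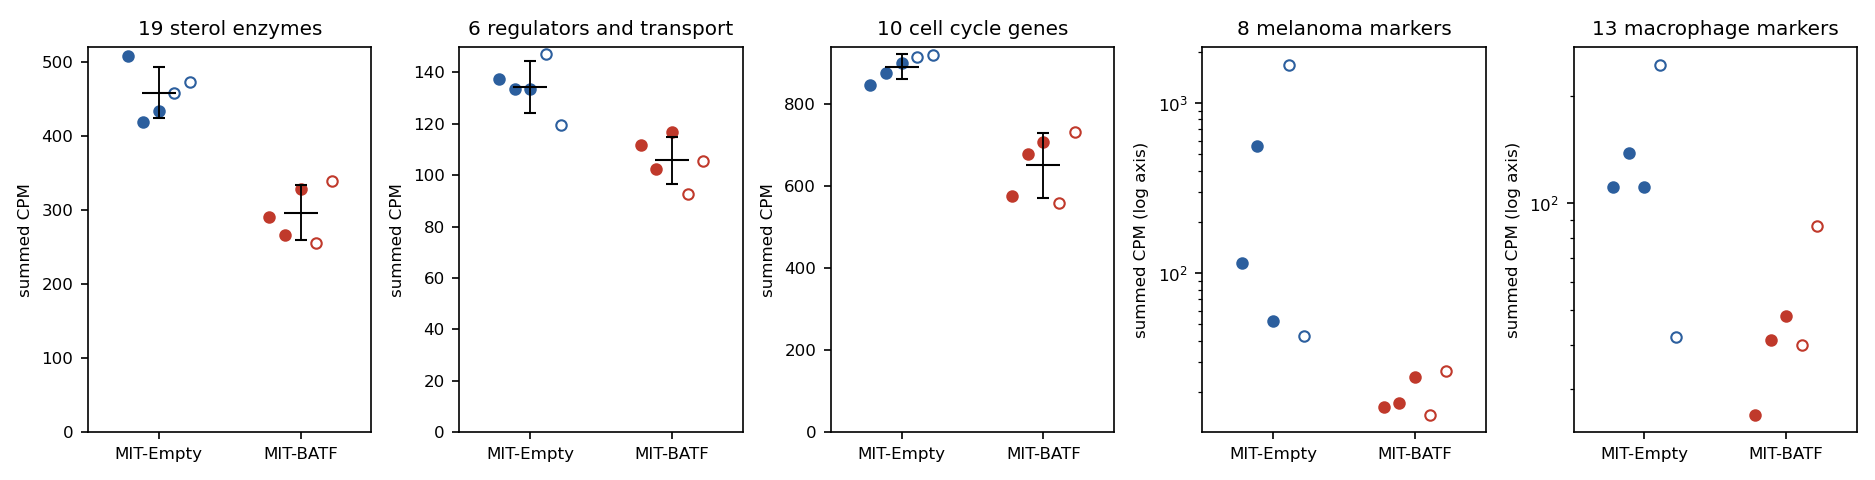
Summed CPM per library (y axes, the melanoma and macrophage panels on log axes) of the sterol enzymes, the regulators and sterol carriers, and 3 marker lists, with open points for contained libraries and bars for the mean and SD where shown. The sums of all panels except the macrophage markers do not overlap between groups, and melanoma markers reach 1677 CPM in MIT-Empty replicate 4. Those of the regulators and sterol carriers overlap with shared counts counted once, at 99.6 to 134 CPM against 128 to 159 CPM.

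Both INSIG genes passed the test as lower, and the SREBP genes did not pass. Among the 6 regulators and carriers, edgeR called 2 lower, Insig1 and Insig2, and 0 higher, with 0 higher also without adjustment, by DESeq2 and by limma voom. DESeq2 called the same 2 lower, and limma voom Stard4 as well. Over all genes, edgeR called 2.43% lower, DESeq2 4.85% of its genes and limma voom 5.93%. Counting shared counts once, edgeR called 0, and DESeq2 called Insig1 and Insig2 lower. Without adjustment by edgeR 3 were lower there, and the groups still did not overlap in Insig1, Insig2 and Stard4. The shares over all genes were then 0.683% by edgeR, 1.48% by DESeq2, 5.18% without adjustment and 1.57% with no overlap.

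Insig1, itself a target of SREBP-2 and a brake on SCAP, held 12.8, 12, 14.4, 14.5 and 15.3 CPM under MIT-BATF and 27.7, 23.5, 19.2, 25.4 and 21.1 CPM under MIT-Empty. The libraries labelled MIT-BATF lay close together, below all of the others. The difference was -0.75 on the log2 scale (SE 0.15, interval -1.08 to -0.43, edgeR adjusted p = 0.0109). Counting shared counts once gave -0.78 (SE 0.19), and the call was lost (edgeR adjusted p = 0.0686). It was regained there without MIT-Empty replicate 3 (adjusted p = 0.0482), and over the 33 alternatives the adjusted p ranged from 0.000325 to 0.348.

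Insig2, the second INSIG protein, which in liver is known to be less tied to SREBP, held 6.67, 5.51, 11.1, 5.19 and 10.6 CPM under MIT-BATF. Under MIT-Empty it held 14.1, 17.9, 14.3, 24.6 and 15.4 CPM. The groups did not overlap in either kind of count. The log2 fold change of -1.12 (SE 0.25, interval -1.66 to -0.58, edgeR adjusted p = 0.0199) was the lowest among the members that passed. With shared counts counted once it was -1.04 (SE 0.28, edgeR adjusted p = 0.0916). In the deposited counts the call was lost without MIT-BATF replicate 2 (adjusted p = 0.0587), MIT-BATF replicate 4 (0.0538), MIT-Empty replicate 2 (0.055) or MIT-Empty replicate 4 (0.0522). Over the 33 alternatives it ranged from 0.00136 to 0.249.

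Srebf2 held 28.5, 31.8, 38.6, 24.2 and 29.0 CPM under MIT-BATF and 33.3, 34.2, 38.1, 36.5 and 27.6 CPM under MIT-Empty. The groups overlapped over most of their range. edgeR put the difference at -0.15 on the log2 scale (interval -0.48 to 0.17, adjusted p = 0.658), so a fall as large as that of Hmgcs1 lay outside the interval. It was -0.12 (interval -0.56 to 0.32) when shared counts were counted once. Scap, the SREBP escort, lay at 9.40 to 21.9 CPM against 11.4 to 13.2 CPM, at 0.16 (interval -0.29 to 0.62), with MIT-BATF replicate 1 at the top. Without that library its log2 fold change was -0.06. Stard4, a cytosolic sterol carrier and SREBP target, held 27.9, 28.7, 32.5, 28.0 and 34.7 CPM against 45.9, 38.9, 39.0, 40.6 and 34.8 CPM. The groups did not overlap, by a margin of under 0.1 CPM, and the log2 fold change of -0.39 did not pass (edgeR adjusted p = 0.118) and turned to 0.22 with transcript length taken into account. In TPM it stood at 8.79 ± 2.74 under MIT-BATF and 7.39 ± 0.73 under MIT-Empty (SD, n = 5 each). Stard4-201 took 17.5% to 33.2% of its TPM under MIT-BATF and 40.1% to 52.2% under MIT-Empty, and the groups overlapped with shared counts counted once.

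Srebf1 held 13.9, 10.7, 7.70, 11.5 and 4.74 CPM under MIT-BATF and 5.14, 6.09, 10.8, 7.43 and 8.71 CPM under MIT-Empty, a difference of 0.33 on the log2 scale (interval -0.29 to 0.94, edgeR adjusted p = 0.612). Its estimated transcript makeup differed between the groups, in a pattern noticed in the data and given as a description with no test. Srebf1-203 took 92.7%, 41.1%, 27.9%, 40.4% and 72.4% of the gene's TPM in MIT-BATF replicates 1 to 5. It was estimated at 0 in all 5 libraries labelled MIT-Empty, where 3 counts of the gene's 42 to 263 would be 1.14% to 7.14%. Srebf1-201, the full-length transcript, took 0% to 61.2% under MIT-BATF and 87.0% to 100% under MIT-Empty. Srebf1-203 took 5.6% with shared counts counted once in MIT-BATF replicate 3, and 40.4% to 92.7% in the other libraries of that group.

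Salmon divides reads between transcripts by a model, and it divides the reads common to both as well. Reads over the parts that differ, which bear on the split most directly, were not looked at. Srebf1-203 shares 16 exons base for base with Srebf1-201, starts later inside its second exon and has an incomplete coding start. It also lacks 15 bases at the end of an exon, at chr11:60206173-60206187 on the minus strand of GRCm38. The stretch is printed from the GENCODE transcripts, with the 15 bases in capitals and 15 on each side, because it is where the models differ inside their shared region. Srebf1 overlaps Rai1 on the other strand, which the protocol cannot separate.
Srebf1-201: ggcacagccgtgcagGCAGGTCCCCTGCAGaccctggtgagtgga
Srebf1-203: ggcacagccgtgcagaccctggtgagtgga

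Over the members as a whole, 39 transcripts of 16 genes could be compared by their share of the gene. The groups did not overlap with a higher share under MIT-BATF in 2 of them, Srebf1-203 and Ggps1-206, where 1.46% of 15884 transcripts did, and with a lower share in 3, Srebf1-201, Ggps1-207 and Stard4-201, where 1.42% did. Counted once, shared counts left the 2 higher ones without overlap, where 0.409% of all transcripts did the same, and 0 were lower. Ggps1-206, annotated as subject to nonsense-mediated decay, took 24.6% to 39.9% under MIT-BATF and 13.9% to 20.1% under MIT-Empty. With shared counts counted once the gap was narrower, at 24.6% to 39.9% against 13.9% to 23.4%.

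**Figure D4:**
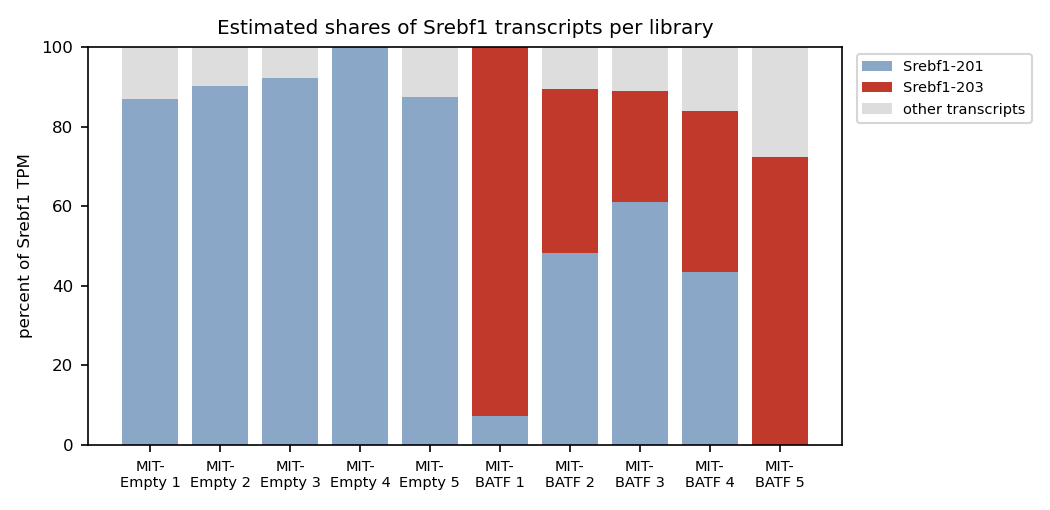
Percent of Srebf1 TPM estimated for Srebf1-201, Srebf1-203 and the other transcripts (y axis) in each library. Srebf1-203 is at 0 in all MIT-Empty libraries and between 27.9% and 92.7% in the MIT-BATF libraries.

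The lipogenic targets of SREBP-1 did not move together. Of the 6, 5 could be tested, and edgeR called 0 in either direction, with Scd2 lower and Elovl6 higher at a p under 0.05 before adjustment, and with Elovl6 alone called by DESeq2, in either kind of count, and by limma voom. Their median log2 fold change was 0.0023, and -0.08 with shared counts counted once. Over all genes, 8.97% were lower and 9.13% higher before adjustment. DESeq2 called 3.37% of its genes higher, and 1.15% with shared counts counted once, and limma voom called 5.41%.

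Elovl6, which lengthens palmitate to stearate, held 7.72, 11.2, 8.39, 12.9 and 6.20 CPM under MIT-BATF and 3.06, 4.51, 3.23, 7.92 and 1.83 CPM under MIT-Empty. MIT-Empty replicate 4 reached into the MIT-BATF values, and the other 4 lay below them. The difference was 1.21 on the log2 scale (SE 0.34, interval 0.47 to 1.94, edgeR adjusted p = 0.0599), and 1.22 with shared counts counted once (edgeR adjusted p = 0.154). Without MIT-Empty replicate 4 it passed in both kinds of count, at 1.54 (adjusted p = 0.014) and 1.59 (adjusted p = 0.0382), and in the deposited counts also without MIT-BATF replicate 5 (adjusted p = 0.049995). DESeq2 gave 0.00928 and limma voom 0.00423 as adjusted p, and the alternatives reached up to 0.628.

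Scd2, a stearoyl-CoA desaturase, held 28.7, 21.2, 25.9, 17.5 and 18.1 CPM under MIT-BATF and 32.5, 53.2, 24.3, 136 and 21.6 CPM under MIT-Empty. The log2 fold change of -1.25 (edgeR adjusted p = 0.112) rested on MIT-Empty replicate 4, the library with 1677 CPM of melanoma markers, and on replicate 2, which contains it. It was 0.00037 without that library and with shared counts counted once. Scd1 followed the same libraries, at 7.76 CPM in MIT-Empty replicate 4, 2.54 CPM in replicate 2 and at most 0.53 CPM in the other 8.

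Acly, Acaca and Fasn make cytosolic acetyl-CoA, malonyl-CoA and palmitate in turn. Acly held 41.6, 47.6, 37.0, 44.6 and 41.8 CPM under MIT-BATF and 46.2, 45.3, 41.6, 50.4 and 29.1 CPM under MIT-Empty. The difference was 0.0023 on the log2 scale (interval -0.33 to 0.33), and a change of 2-fold in either direction lay outside the interval. Fasn lay at 8.16 to 18.5 CPM against 11.7 to 20.2 CPM, at -0.13 (interval -0.62 to 0.35), with MIT-BATF replicate 1 lowest, and at 0.03 without that library. Acaca lay at 3.25 to 11.7 CPM against 4.15 to 7.59 CPM, at 0.42 (interval -0.24 to 1.08).

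The efflux pumps were low. Abcg1, which passes cholesterol to lipoproteins, held 7.29, 3.41, 4.5, 2.06 and 2.64 CPM under MIT-BATF and 2.20, 2.08, 1.43, 2.59 and 0.83 CPM under MIT-Empty. The groups overlapped, and the log2 fold change of 1.15 (interval 0.28 to 2.01) did not pass (edgeR adjusted p = 0.136), nor did it by DESeq2 or limma voom. Abca1 stood at no more than 3.51 CPM, reached in MIT-BATF replicate 1. Its log2 fold change of 0.36 had an interval of -1.19 to 1.91 and turned to -0.34 without that library.

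Levels of different genes were compared per length, as TPM. In the libraries labelled MIT-Empty, Idi1 (18.0 TPM), Fdps (15.6 TPM), Msmo1 (11.7 TPM) and Ebp (10.2 TPM) had the highest mean levels, each overlapping the next in range. Under the label MIT-BATF, Ebp led with 11.7 TPM, ahead of Fdps at 9.66 TPM and Idi1 at 9.60 TPM, again with overlapping ranges. Srebf2 stood at 7.38 TPM and 7.29 TPM, and Srebf1 lower, at 1.47 TPM under MIT-Empty and 2.03 TPM under MIT-BATF. These gene totals of Srebf2 and Srebf1 did not overlap in either group. Of the Srebf2 total, 52.6% to 74.9% was estimated for Srebf2-205, a transcript with a retained intron. The coding transcript Srebf2-201 stood at 1.52 to 4.16 TPM under MIT-BATF and 2.24 to 3.98 TPM under MIT-Empty, which overlaps the Srebf1 totals of 1.00 to 2.64 TPM and 1.02 to 2.31 TPM. Abca1 and Scd1 closed the list in both.

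**Figure D5:**
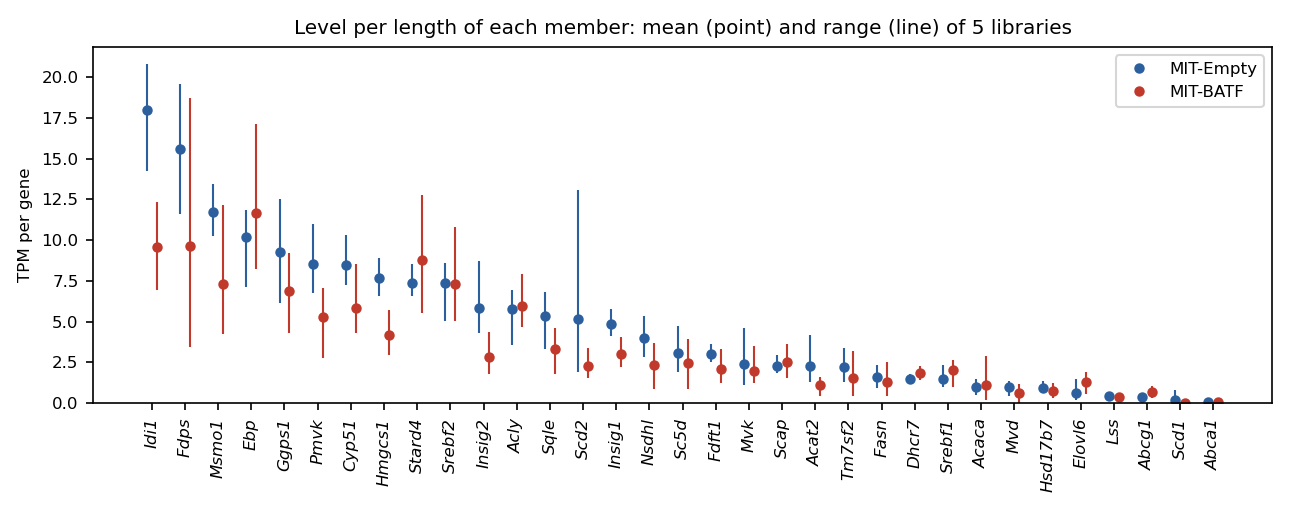
TPM per gene (y axis) of the 33 members, ordered by their mean in the MIT-Empty libraries, with points for the mean and lines for the range of 5 libraries in each group. Idi1 leads under MIT-Empty with 18.0 TPM, and Ebp leads under MIT-BATF with 11.7 TPM.

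Genes next to the sterol pathway were taken from 5 lists of 57 genes in all, of which 46 could be tested. edgeR called 1 of them lower, Tmem97, where it called 2.43% of all genes, and 0 higher (2.16%). Without adjustment (p under 0.05) 7 were higher and 2 lower, against 9.13% and 8.97% of all genes. DESeq2 called 2 higher and 2 lower, against 3.37% and 4.85% of its genes, and limma voom 5 and 1, against 5.41% and 5.93%. Their median log2 fold change was 0.16, against 0.01 over all genes, and 17 of 46 lay below 0, against 49.3%. Of 44 tested with shared counts counted once, edgeR called 0, with 5 higher and 1 lower without adjustment, against 5.45% and 5.18% of all genes. There 14 of 44 lay below 0, against 50.1%, and DESeq2 called 0.

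Tmem97, a sterol-regulated membrane protein, held 14.3, 22.7, 22.5, 20.7 and 22.1 CPM under MIT-BATF and 26.8, 25.9, 32.8, 36.0 and 45.0 CPM under MIT-Empty. It changed by -0.70 on the log2 scale (SE 0.18, edgeR adjusted p = 0.042), and -0.53 with shared counts counted once (adjusted p = 0.439). In the list on SREBP processing and sterol-regulated degradation, the other 8 genes, among them the SREBP proteases Mbtps1 and Mbtps2, did not pass by edgeR, while DESeq2 and limma voom each called 1 of them, Rnf145, as higher. Neither edgeR nor DESeq2 called any of the 9 with shared counts counted once. Of the 15 genes that use isoprenoids for prenylation, dolichol and ubiquinone, edgeR called 0, 2 were higher and 1 lower without adjustment, and limma voom alone called 1, Rce1, as higher. Rabggtb, the most abundant of these per length, was at -0.31 (edgeR adjusted p = 0.226). Beside these counts, edgeR called 2.16% of all genes higher and 2.43% lower, and 9.13% and 8.97% without adjustment. DESeq2 called 3.37% of its genes higher, and limma voom 5.41%. With shared counts counted once, edgeR called 0.575% higher and 0.683% lower, and DESeq2 1.15% and 1.48%.

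Among the genes of sterol uptake, storage and trafficking, 0 of 9 tested passed by edgeR, and 2 were higher without adjustment. DESeq2 called Npc2 higher, and limma voom Npc2 and Gramd1a. Gramd1a, a sterol carrier at membrane contacts and the most abundant of them per length, was at 0.39 by edgeR (adjusted p = 0.149). Of the LXR and oxysterol genes, 0 of 6 tested passed by any of the 3 tools, and 0 did so without adjustment. Nr1h2, the LXR that most cells express, was at -0.01 (edgeR adjusted p = 0.99). Nr1h3, the other LXR, was at 0.263 CPM or less in every library. Of the genes of fatty acid synthesis and desaturation, 0 of 7 tested passed by edgeR, 1 was higher without adjustment, DESeq2 called Me1 lower and limma voom Lpin1 higher. Elovl5, the most abundant, was at 0.08 (edgeR adjusted p = 0.859). For these 3 lists too, the shares of all genes called by edgeR were 2.16% higher and 2.43% lower, and 9.13% and 8.97% without adjustment. They were 3.37% and 4.85% by DESeq2, and 5.41% and 5.93% by limma voom.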

How the data were processed

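Libraries of Thy1.1+ Pmel cells were made by a modified SMART-Seq2 protocol, which does not mark strand, and read in 37 bp pairs. The authors ran nf-core/rnaseq with mm10, and the submitters' notes name Salmon without a version. Per transcript, the deposited files hold Salmon's estimated counts and the authors' TPM, which is scaled to effective length and library total and served only for levels between genes and transcript shares. Counts were added up by gene in GENCODE M21 (GRCm38), leaving out 305 of 112092 transcripts without a match, and rounded.

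The test was edgeR 4.0.16 in R 4.3.3 (glmQLFit and glmQLFTest after TMM and filterByExpr) on 10 libraries with group as its only term, an adjusted p under 0.05 (Benjamini-Hochberg, all genes) counting as a call. It was repeated with shared counts counted once. A library was taken as contained, over 45 pairs, where under 1% of its genes with 5 or more counts exceeded the other. CPM uses TMM-scaled library sizes. Alternatives used DESeq2 1.42.0 (the study's tool), limma 3.58.1 and other filters, scalings and libraries. Figures used matplotlib 3.10.9. Tested on counts simulated for 11450 genes with separate libraries, edgeR found 54.4% of the 2-fold changes and 96.6% of the 4-fold ones. Of its 146 calls, 5 were false. The deposited libraries are not all separate, so these rates do not give the power of the tests above. The members and lists were chosen with earlier results of these data known. All 33 members are named, with those neighbours that passed or were most abundant by TPM in their list, and other genes of these lists were named after their values were seen. Promoter letters come from RefSeq.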

Additional observations from a re-analysis of the deposited data

Results flagged for a closer look

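Among 68 groups of 5 libraries examined, 3 held a library far from the other 4, where chance gives about 1 in 20. Acat2 stood at 16.9 CPM in MIT-Empty replicate 1, against 5.17 to 8.30 CPM in the other 4. Scd2 stood at 136 CPM in MIT-Empty replicate 4, against 21.6 to 53.2 CPM in the other 4. Mitochondrially encoded genes took 33.2% of the counts in MIT-BATF replicate 1, against 11.5% to 15.1% in the other 4.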

How the results depend on the processing

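The log2 fold changes of Hmgcs1, Idi1, Insig1 and Insig2 stayed below 0 in all 33 alternatives, and they passed the test in 31, 24, 20 and 14 of them. Members called lower, 4 in the deposited counts, numbered 10 by DESeq2, 10 by limma voom, 2 with shared counts counted once, 1 without the contained libraries and 0 without the containing ones, which leave 3 libraries per group. Members called higher, 0 in the deposited counts, numbered 1 (Elovl6) by DESeq2, by limma voom and with no filter on low counts. Over all genes, 254 higher and 286 lower became 516 and 742 by DESeq2, 637 and 699 by limma voom, 64 and 76 with shared counts counted once, 37 and 59 without the contained and 7 and 8 without the containing libraries, with 546 lower where no filter was used. Leaving out 1 library gave 1 to 6 members lower and 0 to 1 higher, and 61 to 352 genes higher and 77 to 420 lower, the lowest figures being those without MIT-BATF replicate 1 with shared counts counted once. The cause of these shifts was not tested, beyond the fewer libraries named.

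With shared counts counted once, DESeq2 called 169 genes and 1 member higher and 4 members lower. Leaving out 1 library there, an alternative added after seeing the data for all but MIT-BATF replicate 1, gave 0 to 1 higher and 1 to 3 lower. The count of 1 lower, with Idi1 lost, came without MIT-BATF replicates 1, 2, 3 or 4 or MIT-Empty replicates 1, 2, 4 or 5.

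Same-numbered libraries correlated at between -0.046 and 0.22, and at between -0.088 and 0.349 with shared counts counted once, so the numbers were not taken as pairs. With the replicate block 1 member (Elovl6) was higher and 4 lower, with Insig2 lost (adjusted p = 0.0514 by edgeR) and Fdps gained (adjusted p = 0.0488). With the block and shared counts counted once, 1 member was higher and 2 lower, and 79 genes were higher and 94 lower.

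Reversals were limited to members that did not pass the test. Abca1 turned to -0.44 by limma voom, -0.22 with the replicate block and -0.27 with the block and shared counts counted once. Acly turned to -0.077 with shared counts counted once (-0.068 by DESeq2, -0.060 with the block), -0.016 at a mean count of at least 50 and -0.047 without the contained libraries. Dhcr7 turned to 0.31 and Stard4 to 0.22 with the transcript length offset, and Dhcr7 to 0.023 without the containing libraries. Leaving out 1 library in either kind of count, the log2 fold change ranged from -0.48 to 0.67 for Abca1, -0.19 to 0.072 for Acly, -0.27 to 0.026 for Dhcr7, -0.32 to 0.025 for Fasn, -0.19 to 0.00093 for Ggps1, -0.056 to 0.34 for Scap, -1.44 to 0.00037 for Scd2 and -0.26 to 0.012 for Srebf2. Depth limits Mvd, Mvk, Lss, Tm7sf2, Abca1 and Abcg1, at a few CPM each.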
